A study of Mus musculus with 9 samples.

Results

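Slower activity-regulated genes are a group of 9 neuronal genes, Bdnf, Vgf, Nptx1, Nptx2, Inhba, Homer1, Rgs2, Sik1 and Crem, whose transcription follows synaptic activity. They were taken by symbol from 35975 genes with a quantified transcript, and all 9 were among the 15340 genes abundant enough to be tested. They carry 78 of the 119414 transcripts quantified. RNAseq was run on the mediobasal hypothalamus (MBH), which includes the arcuate nucleus, from wild-type C57Bl/6 male offspring at P21. Their dams drank plain water (CTRL, n = 4 litters) or water with 1% carboxymethylcellulose and 1% polysorbate 80 (Emul, n = 5 litters) for 6 weeks before pregnancy and until weaning. The comparison asks how these genes stood at weaning in offspring of emulsifier-treated dams.

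Calcium entry and cAMP in active neurons lead to phosphorylation of CREB, which binds cAMP response elements in the promoters of many of these genes. Rapid immediate early genes such as Fos and Nr4a1 respond first, and the slower genes mostly encode proteins that act on the synapse or leave the cell. Several of them make alternative transcripts from internal promoters or internal ends, which respond to activity differently. Homer1 has a short form, Homer1a, that lacks the coiled coil through which the long forms join into a scaffold. Bdnf has alternative first exons spliced to 1 shared exon with most or all of the coding sequence. Crem has an internal promoter that gives the repressor ICER.

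The ends of 4 Homer1 coding sequences are shown because the difference between them defines the short and long forms. Homer1-204 has the 186 codons of Homer1a. Its first 527 coding bases are shared with the long form Homer1-203 (366 codons), and it then reads past the splice site of its last exon into the intron. Capitals mark the bases after the last base shared with Homer1-203 (for Homer1-203 itself, after the last base shared with Homer1-204), which begin at chr13:93356080 in Homer1-204, at chr13:93366278 in Homer1-206, at chr13:93386381 in Homer1-207 and at chr13:93386345 in Homer1-203. All are on the plus strand of mm10, and the first 3 run to their stop codon.
Homer1-204: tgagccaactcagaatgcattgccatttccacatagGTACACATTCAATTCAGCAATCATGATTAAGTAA
Homer1-206: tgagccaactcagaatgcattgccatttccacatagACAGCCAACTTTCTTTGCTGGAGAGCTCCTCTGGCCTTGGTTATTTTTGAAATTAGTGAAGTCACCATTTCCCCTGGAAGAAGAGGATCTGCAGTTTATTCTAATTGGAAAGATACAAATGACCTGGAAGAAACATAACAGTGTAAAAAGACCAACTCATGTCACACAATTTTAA
Homer1-207: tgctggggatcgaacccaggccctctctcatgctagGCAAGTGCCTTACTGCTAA
Homer1-203: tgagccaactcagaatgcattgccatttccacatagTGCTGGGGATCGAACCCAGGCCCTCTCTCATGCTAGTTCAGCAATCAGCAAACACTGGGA

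Of the 9 genes, 4 had promoter windows in RefSeq (GRCm38.p6, 300 bases each, mostly upstream of a transcript start), 11 windows in all. The windows of Bdnf first exons 1 and 4 are shown because transcripts from these starts were measured separately, and that of Homer1-207 because it held the most motif matches among the 11. The core of the cAMP response element, TGACG or its reverse complement CGTCA, occurs on either strand in 20.8% of all 32851 windows of this length, and the full palindrome TGACGTCA, which contains both, in 1.79%. Capitals mark core motifs.
Bdnf first exon 1, chr2:109674450-109674749, plus strand: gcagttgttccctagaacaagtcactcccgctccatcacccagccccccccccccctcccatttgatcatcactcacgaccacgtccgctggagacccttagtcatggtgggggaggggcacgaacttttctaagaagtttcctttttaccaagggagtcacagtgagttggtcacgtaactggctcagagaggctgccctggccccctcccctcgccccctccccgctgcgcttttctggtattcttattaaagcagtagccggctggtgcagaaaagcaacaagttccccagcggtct
Bdnf first exon 4, chr2:109692186-109692485, plus strand: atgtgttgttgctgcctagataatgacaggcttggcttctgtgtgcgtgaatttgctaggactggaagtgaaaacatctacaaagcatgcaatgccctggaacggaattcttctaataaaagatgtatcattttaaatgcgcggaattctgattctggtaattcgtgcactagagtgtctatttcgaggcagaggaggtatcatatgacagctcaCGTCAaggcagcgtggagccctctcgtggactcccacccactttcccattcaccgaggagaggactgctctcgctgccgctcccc
Homer1-207, chr13:93303507-93303806, plus strand: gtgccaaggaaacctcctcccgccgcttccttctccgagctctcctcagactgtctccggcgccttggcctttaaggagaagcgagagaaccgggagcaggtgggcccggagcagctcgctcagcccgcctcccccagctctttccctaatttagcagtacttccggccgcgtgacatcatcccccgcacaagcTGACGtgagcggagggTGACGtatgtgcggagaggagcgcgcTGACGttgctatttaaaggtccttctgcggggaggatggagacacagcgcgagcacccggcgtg
The first exon 1 window held no core motif, that of first exon 4 held 1 starting 35 bases before the transcript start, and that of Homer1-207 held 3. Only exact matches were sought, so a response element with other bases would not be counted. The window of Rgs2 held 2. That of Inhba and all remaining windows, among them that of the long form Homer1-202, held none. The Homer1-207 window is not particular to short forms. The first exon of Homer1-207 ends at 93305302, as does that of the long form Homer1-203, which starts further inside it. None of the 11 held the full palindrome.

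Few genes passed the cutoff, while 15.8% of all genes had an unadjusted p under 0.05. An unadjusted p under 0.05 with a change above 1.5-fold was reached by 72 genes (0.469%), and 18 genes had an adjusted p under 0.05 (limma). The median log2 fold change over all genes was 0.0015, and 49.2% of genes were lower in Emul. Libraries held between 28245360 estimated counts (CTRL 3) and 46067534 (Emul 4). MBH markers were present, with 8 of 9 tested and summed at 407 to 446 TPM in CTRL and 363 to 587 TPM in Emul, while Kiss1 was below the filter. Of these 8, 4 were lower and 4 higher, and Fezf1, a transcription factor of the ventromedial nucleus, was lower with an unadjusted p under 0.05 (log2 fold change -0.32, limma adjusted p = 0.18). Some cell type markers differed between the groups at an unadjusted p under 0.05, but none had an adjusted p under 0.05. The smallest adjusted p among them was 0.10 (limma), for the astrocyte marker Gfap. All 6 pan-neuronal markers were higher in Emul on scaled counts, 3 of them with an unadjusted p under 0.05, but their summed TPM, which is not scaled, was 2395 to 2600 in CTRL and 2372 to 2573 in Emul, and the mean TPM of Syt1, Elavl4 and Map2 was lower in Emul. All 5 oligodendrocyte markers were lower, 4 of them with such a p, their sum being 11639 to 14698 TPM in CTRL and 8728 to 12185 TPM in Emul. All 5 astrocyte markers were lower (829 to 902 against 665 to 785 in unscaled TPM), 1 of them, Gfap, with such a p. Gfap had a mean of 256 TPM in CTRL and 180 TPM in Emul. On scaled counts the log2 fold change was -0.40 for Gfap, -0.24 for Aqp4 and between -0.057 and -0.0062 for the others. The 4 suprachiasmatic markers tested were lower (28.1 to 38.6 TPM against 17.2 to 32.6 TPM) and the 4 thalamic ones higher (57.6 to 68.1 TPM against 50.7 to 109.8 TPM), 1 of each with such a p. These were Vip (log2 fold change -1.50) and Rora (0.26), and the other suprachiasmatic markers lay between -0.066 and -0.025. For Vip, Emul 1 and 4 (log2 CPM 2.96 and 3.19) lay within the range of CTRL (2.42 to 3.41). For cortex, microglia, endothelium and tanycytes, no marker had an unadjusted p under 0.05. Of 5 cortical markers tested, 3 were lower and 2 higher. Among them, Slc17a7 varied widely between libraries, with 6.87, 4.06 and 10.2 TPM in Emul 1 to 3. It stood at 0.71 and 0.42 TPM in Emul 4 and 5 and at 0.61 to 2.97 TPM in CTRL. In whole tissue, fewer cells of a type and less RNA per cell cannot be told apart, and the part of these shifts in the values below was not tested.

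Of the 9 slower activity-regulated genes, Sik1 was lower in Emul and Bdnf was higher, and the other 7 did not pass the test. None passed the 1.5-fold cutoff, and none had an adjusted p under 0.05. An unadjusted p under 0.05 was reached by 2 of the 9 genes, against 15.8% of all genes, 1 of them lower (8.99% of all genes) and 1 higher (6.84%). The groups did not overlap for 1 of the 9, Sik1, against 6.6% of all genes. The estimates were lower in Emul for 5 of the 9 genes and higher for 4, with a median log2 fold change of -0.018.

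**Figure D1:**
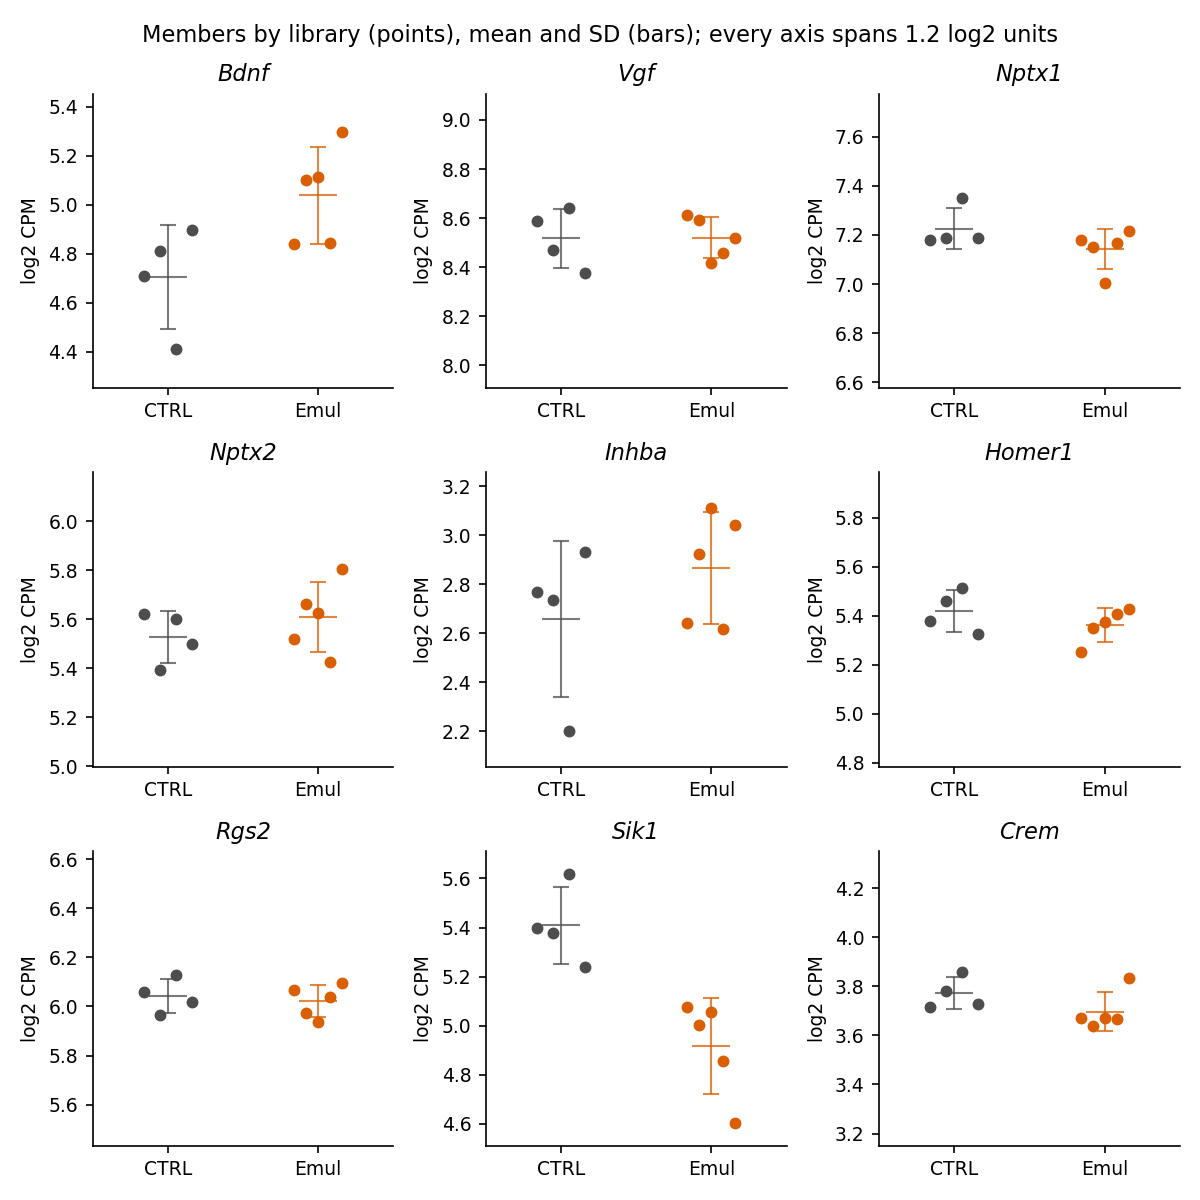
Log2 CPM of the 9 genes in each library, in 9 panels with CTRL (n = 4, grey) and Emul (n = 5, orange). Points are libraries and bars are the mean and SD, with every axis spanning 1.2 log2 units. Sik1 is the gene whose groups do not overlap, with Emul between 4.60 and 5.07 and CTRL between 5.24 and 5.62, and CTRL 3 is the lowest library for Bdnf (4.41) and Inhba (2.20).

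Per unit of transcript length, Vgf was the most abundant of the 9 genes, with 302 ± 27 TPM (SD, n = 4) for CTRL and 281 ± 14 TPM (SD, n = 5) for Emul. Rgs2 (67.0 ± 4.2 TPM in CTRL) and Nptx1 (57.7 ± 4.1 TPM) followed and overlapped, from 57.9 to 73.1 TPM and from 46.05 to 63.6 TPM over all libraries. Nptx2 stood at 37.8 ± 2.7 TPM in CTRL, above Crem (26.9 ± 1.0 TPM) in every library. Crem, Homer1 (23.6 ± 2.3 TPM) and Sik1 (19.4 ± 2.3 TPM) lay close together in CTRL by TPM. In log2 CPM, which takes no account of length, their CTRL means were 3.77, 5.42 and 5.41. On that scale Rgs2 (6.04) lay below Nptx1 (7.23) in CTRL. In Emul, Sik1 stood at 12.8 ± 1.7 TPM and Bdnf at 15.2 ± 2.1 TPM, means in the reverse of their order in CTRL (19.4 TPM and 13.03 ± 1.7 TPM). Inhba was the least abundant, at 2.11 ± 0.49 TPM in CTRL and 2.13 ± 0.32 TPM in Emul. TPM values were not scaled between libraries, and the fold changes below are from scaled counts.

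Of the secreted proteins, Bdnf, a neurotrophin that acts through the receptor TrkB (chromosome 2, 109674700 to 109727007), stood at a log2 CPM of 4.71, 4.81, 4.41 and 4.90 in CTRL 1 to 4. In Emul 1 to 5 it stood at 4.84, 5.10, 5.11, 4.84 and 5.30. Emul libraries lay above the CTRL mean in 5 of 5 cases, but CTRL 4 lay above the lowest Emul libraries, and CTRL 3 was the lowest of all. Bdnf was higher in Emul by 0.31 on the log2 scale (SE 0.108, unadjusted p = 0.015, limma adjusted p = 0.21; p = 0.063 by exact permutation), a fold change of 1.24. Without CTRL 3 the difference was 0.22, and without CTRL 4 it was 0.37. The receptors and processing proteins of BDNF showed no call: of 7 tested genes of that list (Ntf3 was below the filter), 4 were lower and 3 higher, none with an unadjusted p under 0.05, with a median log2 fold change of -0.021. Ntrk2, which encodes TrkB and was the most abundant of them (334 ± 16 TPM in CTRL), had a log2 CPM of 10.17 ± 0.048 in CTRL and 10.17 ± 0.056 in Emul.

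Vgf, a granin-like secretory protein cleaved into peptides (chromosome 5, 137026392 to 137033351), stood at a log2 CPM of 8.59, 8.47, 8.64 and 8.37 in CTRL and 8.61, 8.59, 8.42, 8.46 and 8.52 in Emul. The groups overlapped throughout, with a log2 fold change of 0.0046 (SE 0.056, limma adjusted p = 0.98). The direction of so small a value turned with library size alone as the scaling. Of 11 tested slower or secreted activity-induced genes outside the 9 (Ptgs2 was below the filter), 5 were lower and 6 higher, with a median of 0.014. An unadjusted p under 0.05 was reached by 2 of the lower and 1 of the higher genes, against 15.8% of all genes. Those with an unadjusted p under 0.05 were Nrn1, a neuritin that promotes neurite growth (log2 fold change 0.40, SE 0.11, limma adjusted p = 0.155), Tiparp, an ADP-ribosyltransferase (-0.30, SE 0.066, adjusted p = 0.10), and the clock gene Per1 (-0.12, SE 0.045, adjusted p = 0.23).

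Nptx1 and Nptx2 encode neuronal pentraxins, secreted proteins that gather AMPA receptors at synapses. Nptx1 (chromosome 11, 119538719 to 119547753) stood at a log2 CPM of 7.18, 7.19, 7.35 and 7.19 in CTRL and at 7.18, 7.15, 7.0, 7.17 and 7.22 in Emul. Emul 3 was the lowest and CTRL 3 the highest, and the other 7 libraries lay between 7.15 and 7.22. The log2 fold change was -0.080 (SE 0.048, limma adjusted p = 0.44). Nptx2 (chromosome 5, 144545902 to 144557478) stood at 5.62, 5.39, 5.60 and 5.50 in CTRL and at 5.52, 5.66, 5.62, 5.43 and 5.80 in Emul, with its highest value in Emul 5 and overlap elsewhere. Its log2 fold change was 0.081 (SE 0.072, adjusted p = 0.62). Among 7 genes of pentraxin partners and AMPA receptor subunits, 4 were lower and 3 higher (median -0.035). An unadjusted p under 0.05 was found for 1 of the 7, against 15.8% of all genes. It was C1ql3, a secreted synapse organiser (log2 fold change -0.23, SE 0.082, limma adjusted p = 0.22).

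Inhba encodes the activin A subunit (chromosome 13, 16011851 to 16031621). Its log2 CPM was 2.77, 2.73, 2.20 and 2.93 in CTRL and 2.64, 2.92, 3.11, 2.62 and 3.04 in Emul. CTRL 3 lay below all others and the rest overlapped. The spread within groups, 0.270 log2 units, was at the 92nd percentile of all genes tested, the widest of the 9. The log2 fold change of 0.16 (SE 0.146, limma adjusted p = 0.62) was close to its error, and it was 0.043 without CTRL 3 and 0.26 without CTRL 4. Of 9 activin ligands, receptors and inhibitors, 5 were lower and 4 higher, none with an unadjusted p under 0.05 (median -0.015). The most abundant of them was the receptor Acvr1b, with a log2 fold change of -0.015. Inhba is overlapped on the other strand by B230303A05Rik, a transcribed pseudogene with a mean log2 CPM of 2.50. The libraries were strand-specific, but the paper does not state whether the quantification used the strand.

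Homer1, a scaffold that ties group I metabotropic glutamate receptors to IP3 receptors and Shank (chromosome 13, 93299635 to 93405129), stood at a summed log2 CPM of 5.38, 5.46, 5.51 and 5.32 in CTRL. In Emul it stood at 5.25, 5.35, 5.37, 5.41 and 5.43. The groups overlapped, with a log2 fold change of -0.052 (SE 0.048, limma adjusted p = 0.63). In the list of other Homer genes and their receptor and scaffold partners, 1 of 8 was lower and 7 were higher (median 0.039). An unadjusted p under 0.05 was found for 1 of the 8, against 15.8% of all genes. It was Dlgap1, which encodes a postsynaptic scaffold protein (0.13, SE 0.049, limma adjusted p = 0.24).

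Rgs2, which speeds GTP hydrolysis by Gq alpha subunits (chromosome 1, 143999338 to 144004161), stood at a log2 CPM of 6.06, 5.97, 6.13 and 6.02 in CTRL and 6.07, 5.97, 5.94, 6.04 and 6.09 in Emul. It was the steadiest of the 9, with a spread within groups of 0.067 log2 units at the 34th percentile of all genes. The log2 fold change was -0.018 (SE 0.043, limma adjusted p = 0.87) and its sign turned in the authors' log2 CPM table (0.010). Of 7 related RGS and Gq genes tested (Rgs1 was below the filter), 1 was lower and 6 were higher (median 0.072). An unadjusted p under 0.05 was found for 1 of the 7, against 15.8% of all genes. It was Rgs4, another RGS protein of neurons (0.22, SE 0.081, limma adjusted p = 0.22).

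Of the regulators inside the cell, Sik1, a salt-inducible kinase that holds the CREB coactivators of the CRTC family in the cytoplasm and is itself induced by CREB, was lower in Emul. Sik1 (chromosome 17, 31844250 to 31855804) stood at a log2 CPM of 5.40, 5.38, 5.62 and 5.24 in CTRL 1 to 4 and at 5.07, 5.00, 5.06, 4.86 and 4.60 in Emul 1 to 5. All 5 Emul libraries lay below the lowest CTRL library, with Emul 5 the lowest. The log2 fold change was -0.48 (SE 0.093, limma adjusted p = 0.081; p = 0.0079 by exact permutation, the smallest that 4 and 5 libraries allow), a fold of 0.718 and the 44th smallest p of all genes tested. It lay between -0.40 without Emul 5 and -0.54 without CTRL 4. Its adjusted p was 0.00014 in DESeq2, 0.049 with library size alone as the scaling, and between 0.069 and 0.20 in the other 18 alternatives. In the authors' log2 CPM table it was 5.51 in CTRL and 5.02 in Emul on average, a difference of -0.49 (limma adjusted p = 0.11).

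Of 15 genes of CREB, its coactivators and their kinases, 5 were lower and 10 higher, with a median of 0.030. Sik2 and Sik3, the other kinases of the family, named after their values were seen, had log2 fold changes of 0.03 and 0.042. An unadjusted p under 0.05 was reached by 1 of the lower and 2 of the higher genes, against 15.8% of all genes. They were Camk1d, a calcium-dependent kinase (0.13, limma adjusted p = 0.19), Ppp3ca, a catalytic subunit of calcineurin (0.077, adjusted p = 0.21), and Ep300, a histone acetyltransferase (-0.091, adjusted p = 0.24). The groups did not overlap for Ppp3ca, as for 6.6% of all genes. Rapid immediate early genes were lower in 8 of 9 cases (Egr2 was below the filter), with a median of -0.28. Of these, 4 had an unadjusted p under 0.05, against 8.99% of all genes in that direction. Their log2 fold changes were -0.69 for Fos (SE 0.203), -0.69 for Nr4a1 (SE 0.187), -0.49 for Egr1 (SE 0.184) and -0.46 for Junb (SE 0.182). Fos and Nr4a1 passed the 1.5-fold cutoff, as did 0.469% of all genes. None of the 4 had an adjusted p under 0.05.

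Crem, a CREB relative whose internal promoter gives the repressor ICER (chromosome 18, 3266048 to 3337748), stood at a summed log2 CPM of 3.72, 3.78, 3.86 and 3.73 in CTRL and 3.67, 3.64, 3.67, 3.67 and 3.84 in Emul. Emul 5 lay among the CTRL libraries and the other 4 Emul libraries below them. The log2 fold change was -0.072 (SE 0.057, limma adjusted p = 0.57).

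**Figure D2:**
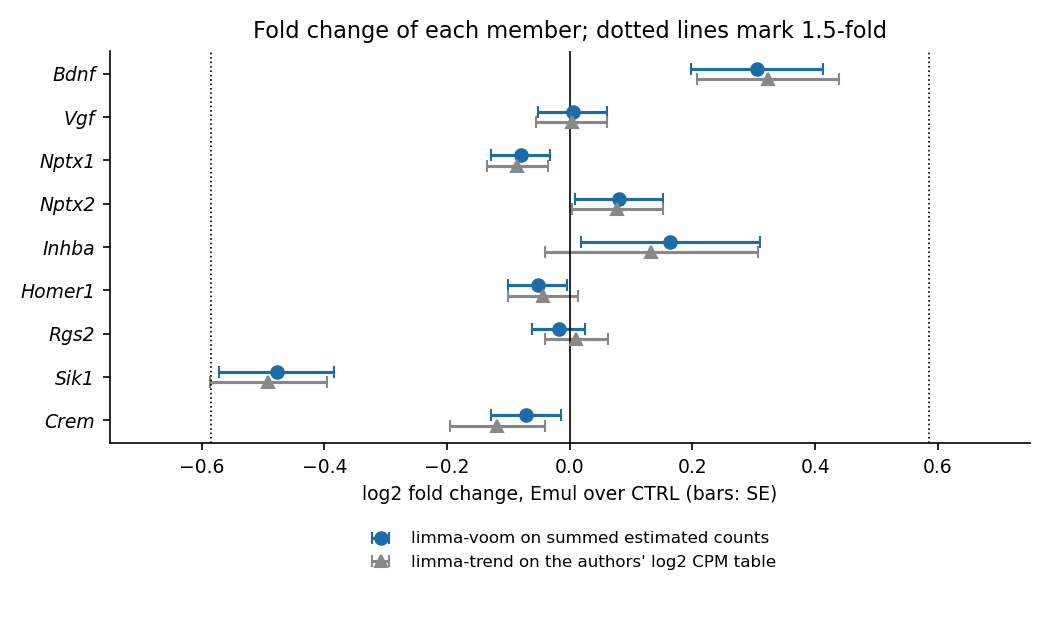
Log2 fold change of Emul over CTRL for each of the 9 genes, with SE bars, from limma-voom on summed estimated counts (circles) and from limma-trend on the authors' log2 CPM table (triangles). Dotted lines mark a change of 1.5-fold. Sik1 (-0.48 and -0.49) and Bdnf (0.31 and 0.32) stand away from 0, and the other 7 genes lie between -0.12 and 0.16.

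Of the 78 transcripts of these genes, 25 passed the filter on low counts. Of these 25, 5 had an unadjusted p under 0.05 (against 10.8% of all transcripts tested), and none of the 39840 transcripts tested had an adjusted p under 0.05. Relative to the rest of their gene (diffSplice, which needs a gene with at least 2 tested transcripts), 6 of 21 had an unadjusted p under 0.05, against 11.7% of all transcripts tested. In diffSplice, 367 of all 34224 transcripts tested had an adjusted p under 0.05. Sik1, Nptx1, Nptx2 and Inhba were each measured almost wholly through 1 transcript, so their transcripts repeat the gene: Sik1-201, with 99.1% of the counts of Sik1, was lower by -0.47 on the log2 scale (SE 0.10). Rgs2 and Vgf had 3 tested transcripts each, and none had an unadjusted p under 0.05. The share of all tested transcripts whose groups did not overlap was not counted (6.6% for genes). How common the separations of single transcripts given below are is therefore not known.

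Homer1 was the gene whose transcripts differed from each other in their change. Over its 5 tested transcripts, the diffSplice F test gave an adjusted p of 0.014 over 9338 genes, 0.063 with replicate number as a block and between 0.014 and 0.086 with 1 library left out, the highest without CTRL 2. Homer1-204, the Homer1a form with the 34 bases of its own shown above, stood at a log2 CPM of 3.19, 3.49, 3.51 and 3.13 in CTRL and at 2.89, 2.93, 2.94, 3.05 and 3.09 in Emul. In Emul all 5 values were under the lowest CTRL value, with a log2 fold change of -0.34 (SE 0.104, unadjusted p = 0.0089 and limma adjusted p = 0.35). It holds 20.8% of Homer1 counts, and 4383 of its 5713 bases are in no other annotated Homer1 transcript. Those bases lie in an intron of the long forms, so that unspliced Homer1 RNA and Homer1a cannot be told apart there.

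Homer1-206, another short form (233 codons), holds 3.33% of Homer1 counts, under the 5% set for describing a transcript, and is named because its values were seen. It stood at a log2 CPM of 1.08, 1.36, 0.58 and 0.91 in CTRL and -0.82, 0.19, 0.33, 0.063 and 0.0029 in Emul, from 20.1 to 103 estimated counts. The groups did not overlap. Every base of it also lies in another annotated Homer1 transcript. Its log2 fold change was -1.09 (SE 0.268, limma adjusted p = 0.29), and relative to the rest of Homer1 it was -1.10 (adjusted p = 0.027 from diffSplice, 0.014 to 0.091 with 1 library left out). The long forms did not pass the test on their own levels: Homer1-202 (41.4% of counts) stood at 4.12 ± 0.029 in CTRL and 4.14 ± 0.130 in Emul, and Homer1-203 (23.5%) at 3.21 ± 0.172 and 3.38 ± 0.144 on the log2 CPM scale. Relative to the rest of Homer1, Homer1-203 was higher by 0.30 on the log2 scale (unadjusted p = 0.021 and adjusted p = 0.30 from diffSplice in limma). Homer1-207, a short form of 193 codons with 10.2% of counts, stood at 1.98 ± 0.252 and 2.19 ± 0.301. The estimates of the transcripts annotated as short thus did not share a direction. Of the 2468 bases of Homer1-207, 709 are in no other annotated Homer1 transcript. Part of these lie at its 5′ end (from 93303757), before the start of Homer1-206 (93304102). Long Homer1 RNA from that start and Homer1-207 cannot be told apart there. Homer1-207 is counted in the short share below.

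Summed over all short coding forms, the share of Homer1 counts was 34.1%, 41.9%, 40.5% and 35.9% in CTRL and 30.3%, 30.7%, 32.8%, 33.3% and 35.6% in Emul. Emul 5 lay among the CTRL libraries, and the other 4 Emul libraries below them. The mean share was 38.1% ± 3.7 (SD, n = 4) for CTRL and 32.5% ± 2.2 (SD, n = 5) for Emul (two-sided exact permutation test, p = 0.024). In all, 18 shares of transcript groups were computed for Homer1, Bdnf and Crem, and the 4 with an unadjusted p under 0.05 (2 of them the short and long shares of Homer1) had a Benjamini-Hochberg value of 0.107 over the 18 exact permutation tests. Taken from TPM in place of counts, the p of the short share was 0.079 (exact permutation test), and it lay between 0.054 and 0.071 without CTRL 2 or 3 or without any of Emul 1 to 4.

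**Figure D3:**
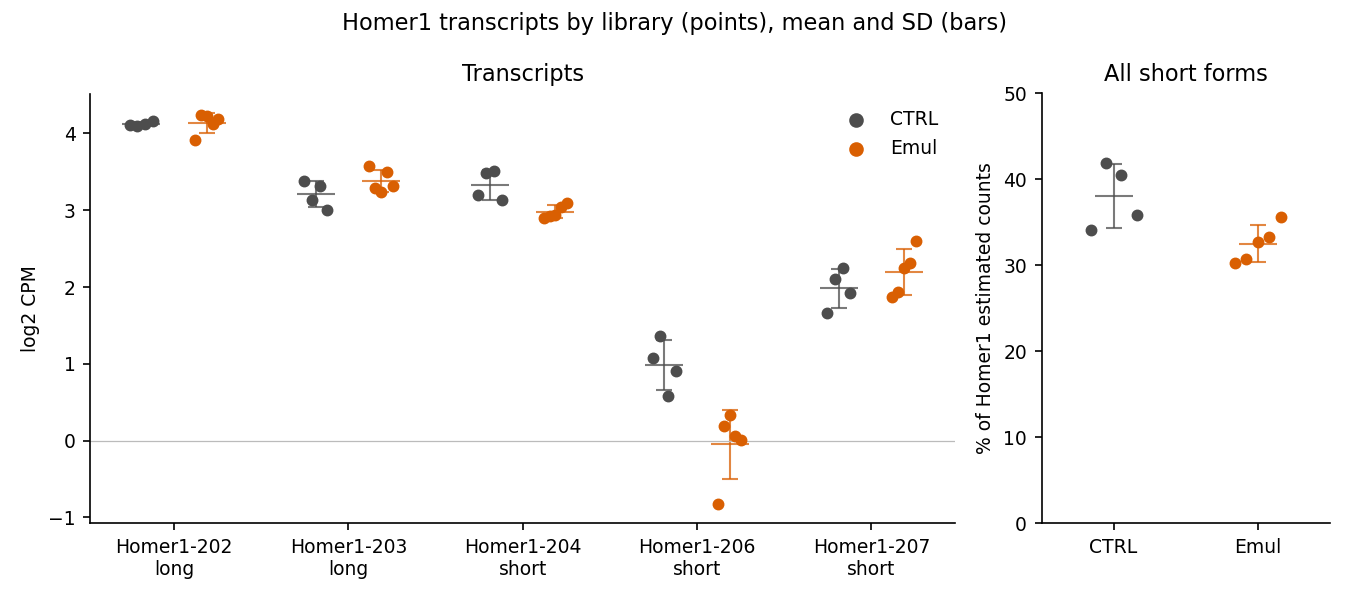
Log2 CPM of the 5 tested Homer1 transcripts by library (left) and the share of Homer1 estimated counts on all short forms in percent (right), for CTRL (grey) and Emul (orange), with points for libraries and bars for mean and SD. Homer1-204 and Homer1-206 are lower in all 5 Emul libraries than in any CTRL library, while the long forms Homer1-202 and Homer1-203 overlap between groups.

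Bdnf counts came mainly from transcripts with first exons 1, 2, 4 and 6, counted from the 5′ end of the gene. First exon 1 (Bdnf-201, chromosome 2, 109674700 to 109675339) opens a coding sequence of 257 codons, against 249 for first exons 2, 4 and 6. Bdnf-201 stood at a log2 CPM of 2.84, 3.01, 2.27 and 2.84 in CTRL and 3.70, 3.37, 3.45, 3.16 and 3.81 in Emul. In Emul all 5 values exceeded the highest CTRL value, with a log2 fold change of 0.72 (SE 0.179, unadjusted p = 0.0026 and limma adjusted p = 0.29). The other main transcripts did not pass the test: the log2 fold changes were 0.055 for Bdnf-205 (first exon 6), -0.052 for Bdnf-210 and 0.62 for Bdnf-207 (both first exon 2), and 0.27 for Bdnf-209 (first exon 4, the window above with a core motif), with SEs of 0.277, 0.147, 0.333 and 0.276.

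As a share of Bdnf counts, first exon 1 made up 26.9%, 28.3%, 22.4% and 23.7% in CTRL and 44.7%, 29.5%, 31.3%, 30.7% and 35.1% in Emul, without overlap. Emul 1 was far above the rest. The mean share was 25.3% ± 2.8 (SD, n = 4) for CTRL and 34.3% ± 6.2 (SD, n = 5) for Emul (exact permutation test, p = 0.016), and with any 1 CTRL library left out the exact p was 0.054 or 0.071. The share of first exon 2 was 32.6% ± 4.5 in CTRL and 26.9% ± 3.6 in Emul (exact permutation test, p = 0.087). First exon 4 made up 14.5% ± 2.4 and 14.3% ± 4.2, and first exon 6 made up 25.0% ± 1.9 and 21.6% ± 5.9. First exons 3, 5, 7 and 8 had mean shares from 0.00% to 1.96%, and first exon 5 (Bdnf-211) had no count in any library. Over the 5 tested Bdnf transcripts, the diffSplice F test gave an adjusted p of 0.44. The antisense gene Gm45346 overlaps first exon 1 on the other strand and was below the filter.

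Crem has 39 annotated transcripts in 8 first exon groups, 5 of which passed the filter on low counts as single transcripts. First exon 8 (chromosome 18, 3280949 to 3281132), an internal start near the 3′ end of the gene that opens coding sequences of 285 to 357 bases, made up 24.1%, 25.7%, 22.5% and 24.8% of Crem counts in CTRL. In Emul it made up 18.4%, 21.5%, 15.9%, 17.8% and 15.7%. The groups did not overlap, with 24.3% ± 1.3 (SD, n = 4) against 17.8% ± 2.3 (SD, n = 5) (exact permutation test, p = 0.016), and the exact p lay between 0.018 and 0.029 with 1 library left out. First exon 7, a neighbouring internal start with coding sequences of 324 to 375 bases, made up 28.5% ± 3.1 and 29.0% ± 5.5, and the share of first exon 1, the most 5′ start, was 20.8% ± 5.4 and 26.8% ± 3.8 (exact permutation test, p = 0.11). With shares taken from TPM in place of counts, the differences were -8.66 percentage points for first exon 8, 5.49 for first exon 7 and 2.52 for first exon 1. In TPM, transcripts of first exon 8 summed to 8.76 ± 0.71 in CTRL and 5.49 ± 0.53 in Emul. Among them, Crem-218 (6.95% of Crem counts, 13.7 to 86.2 estimated counts a library) was lower, with a log2 fold change of -1.24 (SE 0.456, limma adjusted p = 0.41) and overlap of the groups. Crem-206, the most abundant of the first exon 8 group (8.76% of Crem counts), had a log2 fold change of -0.044 (SE 0.248, limma adjusted p = 0.96). Over the 5 tested Crem transcripts, the diffSplice F test gave an adjusted p of 0.25.

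**Figure D4:**
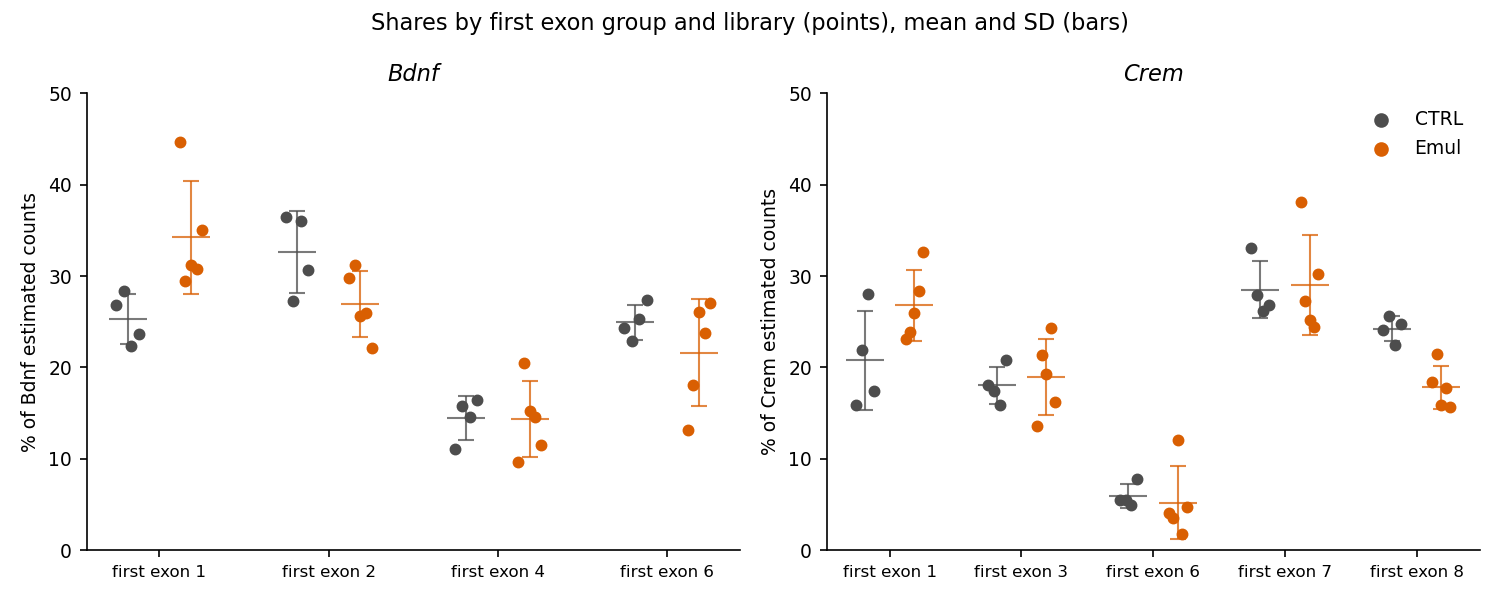
Share of the gene's estimated counts, in percent, on transcripts grouped by first exon, for Bdnf (left) and Crem (right), with first exon groups of at least 5% in CTRL, points for libraries and bars for mean and SD. Bdnf first exon 1 is higher in every Emul library (29.5% to 44.7%) than in CTRL (22.4% to 28.3%), and Crem first exon 8 is lower in every Emul library (15.7% to 21.5%) than in CTRL (22.5% to 25.7%).

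Within groups, the 9 genes did not vary as one. After each group's mean was subtracted, 4 of the 36 pairs had a Pearson r of at least 0.7 in size over the 9 libraries, which share these libraries and their depth. Bdnf and Inhba had an r of 0.93 (Spearman's rho 0.83) and kept 0.84 without CTRL 3 and Emul 1, the libraries farthest from the median of Bdnf. Nptx1 and Rgs2 had an r of 0.84 (0.62 without their 2 farthest libraries), and Bdnf and Sik1 one of -0.71 (-0.46). For Nptx1 and Inhba the r of -0.72 turned to 0.38 without CTRL 3 and Emul 3 and rests on them.

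The genes whose values within groups were most like those of Bdnf were Col19a1 (r = 0.98), Nhlh2 (0.97) and Foxb1 (0.97), and those most like Inhba were Adarb2 (0.99), Anxa6 (0.98) and Rbms3 (0.98). Sik1 was most like Gga1 (0.96), Tmem214 and Vps18 (both 0.95). For the others the nearest gene was Trim28 for Vgf (0.99), Pgrmc1 for Nptx1 (0.96), Nfib for Nptx2 (0.97), Cnga3 for Homer1 (0.97), Gucy1b1 for Crem (0.98) and Npy2r for Rgs2 (0.97), all over 9 libraries. Foxb1 and Nhlh2 are transcription factors of the mammillary region, which adjoins the MBH behind. Since they were picked for their likeness to Bdnf, other genes of the mammillary and supramammillary region, Lmx1a, Lmx1b and Barhl1, were summed without them, also chosen after values were seen. Their sum was 10.1, 9.31, 3.83 and 13.01 TPM in CTRL 1 to 4 and 8.65, 13.2, 12.6, 9.93 and 14.2 TPM in Emul 1 to 5. CTRL 3 was the lowest and Emul 5 the highest, the libraries that were also lowest and highest for Bdnf. None of the 3 genes had an unadjusted p under 0.05 between the groups, and their log2 fold changes were 0.56, 0.31 and 0.40. The part of this region in the difference of Bdnf was not tested.

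**Figure D5:**
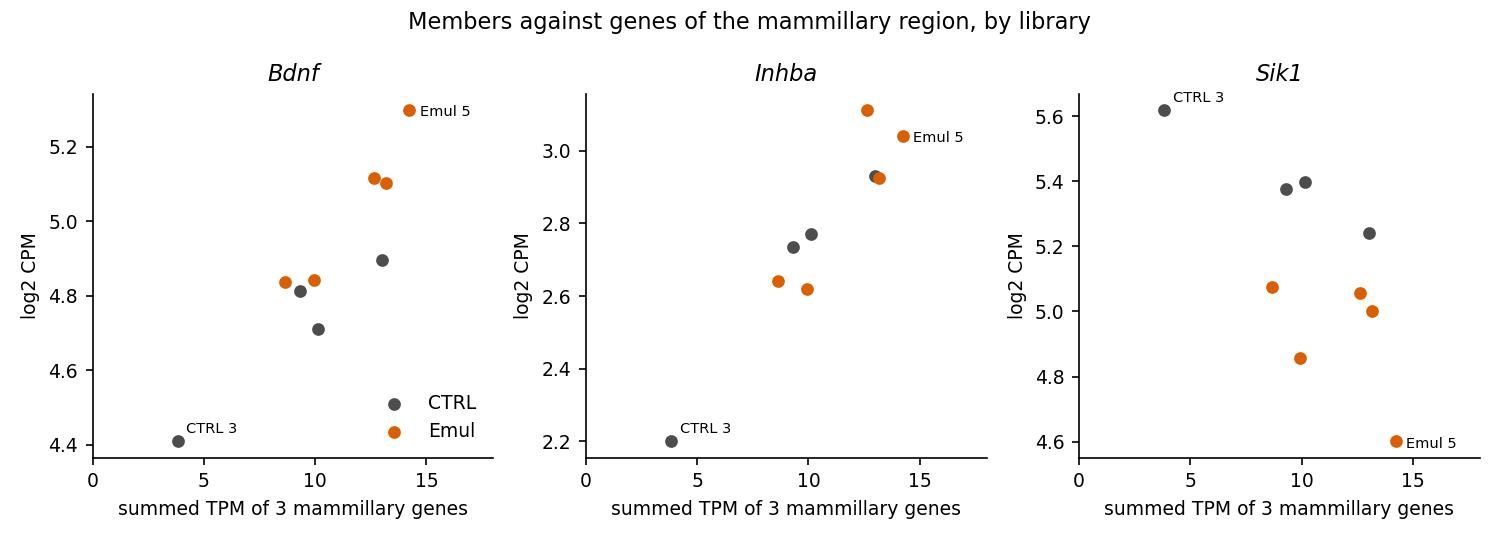
Log2 CPM of Bdnf, Inhba and Sik1 against the summed TPM of Lmx1a, Lmx1b and Barhl1, genes of the mammillary region, in each library, with CTRL in grey (n = 4) and Emul in orange (n = 5). CTRL 3 (3.83 TPM) and Emul 5 (14.2 TPM) lie at the ends of the x axis.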

How the data were processed

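RNA of 9 libraries (4 CTRL, 5 Emul) was sequenced by the authors, who quantified transcripts with kallisto 0.46.1 on mm10, per the labels, and deposited estimated counts and TPM values per transcript and a table of log2 CPM values per gene. Estimated counts were summed per gene in GENCODE M21, which held 97.8% of transcripts. Genes or transcripts that exceeded 1 CPM in 4 or more libraries were scaled by TMM and compared by limma-voom (limma 3.58.1, edgeR 4.0.16, R 4.3.3). Adjusted p-values are Benjamini-Hochberg values over all genes or transcripts tested. Log2 CPM used a prior count of 2. Changes of transcripts within a gene were tested by diffSplice, and shares of counts by two-sided exact permutation tests over 126 assignments. For edgeR and DESeq2 1.42.0, counts were rounded. Short Homer1 forms have a coding sequence under 70% of the longest. Genes named beyond the 9 are list members with an unadjusted p under 0.05 (at most 4 a list), or the most abundant, and the 3 nearest by r. The fits were run on simulated counts with changes larger than those of the 9 genes, the same dispersion for all genes and no assignment error. That checks the code and not the calls given here. The 9 genes and the lists were chosen with earlier results of these data known, and some list genes are not reported here. Libraries held 28245360 to 46067534 counts, p-values measure the spread between libraries of separate litters, and estimated counts of similar transcripts carry an assignment error that the deposited values do not give.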

Additional observations from a re-analysis of the deposited data

Results flagged for a closer look

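Nptx1 had 1 distant CTRL sample: its log2 CPM was 7.35 in CTRL 3 and from 7.18 to 7.19 in the remaining 3, so that the gap took up 0.931 of the range. Crem had 1 distant Emul sample: its log2 CPM was 3.84 in Emul 5 and from 3.64 to 3.67 in the remaining 4, a gap of 0.838 of the range. Both exceed the limit of Dixon's test for a single distant sample. In all, 74 groups of genes, transcripts and shares were examined, of which chance alone puts about 3.7 past the limit.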

How the results depend on the processing

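The count of all genes past the cutoff (72) was 688 without a filter on low counts, 37 when 1 CPM was needed in all libraries, 18 at an adjusted p under 0.05 in place of the cutoff and 2428 with no fold cutoff. With 1 library left out it lay between 48 and 95. Sik1 was lower and Bdnf higher in all 20 alternatives of each. None of the 9 genes passed the 1.5-fold cutoff in any alternative tried. Replicate numbers are shared by the labels of both groups but name no shared litter. The deviations of same-numbered libraries had correlations of -0.163, -0.015, 0.021 and -0.055, and no library was most like its own number. With the replicate number as a block, 1 of the 9 genes had an unadjusted p under 0.05 in place of 2, since Bdnf had a limma p of 0.0503 (log2 fold change 0.24), and values turned for Bdnf-205 (-0.068), Crem-230 (0.0053), Crem-206 (0.064) and Bdnf-209 relative to its gene (0.067). For the shares, the block gives the mean difference within the 4 shared numbers (chosen after seeing the data), whose exact permutation p cannot go below 0.125: -6.34 percentage points for short Homer1, 8.72 for Bdnf first exon 1, -5.89 for Crem first exon 8 and 0.54 for Bdnf first exon 4.

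Small values turned sign elsewhere: Vgf with library size alone (-0.026), and Rgs2 with length-scaled counts (0.011) and in the authors' table (0.0105). With 1 library left out, log2 fold changes ranged from -0.044 to 0.044 for Vgf, -0.045 to 0.0075 for Rgs2, -0.093 to 0.27 for Bdnf-205, -0.15 to 0.015 for Bdnf-210, -0.12 to 0.089 for Crem-230, -0.19 to 0.027 for Crem-206, -0.011 to 0.069 for Homer1-202, -0.058 to 0.0041 for Rgs2-202 and -0.20 to 0.11 for Bdnf-209 relative to its gene. Differences of shares, in percentage points, ranged from -6.91 to -4.30 for short Homer1 (-5.28 from TPM), 6.30 to 10.1 for Bdnf first exon 1, -1.70 to 1.021 for Bdnf first exon 4, 4.36 to 8.41 for Crem first exon 1 (2.52 from TPM, exact permutation p = 0.036 without CTRL 3), -0.41 to 2.26 for Crem first exon 3, -2.43 to 0.15 for Crem first exon 6 (exact permutation p = 0.029 without Emul 3) and -1.74 to 2.03 for Crem first exon 7 (5.49 from TPM). The cause was not tested, except that leaving out libraries also raises the smallest p that can be reached. Estimated counts of low transcripts, such as 13.7 to 86.2 for Crem-218, limit what their values can show.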
